A study of Mus musculus with 6 samples.

Results

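The genes described here are 10 genes of the lipid droplet, the organelle in which liver cells store triglyceride: the CIDE genes Cidea, Cideb and Cidec, the perilipins Plin2, Plin3, Plin4 and Plin5, the triglyceride lipase gene Pnpla2 with its inhibitor G0s2, and Fitm1. Members were the genes on a named list whose transcript accession was carried by a non-control probe of the array. All 10 were found, through 11 of the 41174 probes, and they make up 10 of the 21059 genes and unmatched transcripts tested. RNA was measured in livers of mice aged 5 weeks on 6 one-colour Agilent arrays, 3 from control wild-type mice and 3 from mice with a knockout of small Maf genes in the liver (sMaf CKO). Both genotypes were on a mixed background of 129Sv/J, C57BL/6J and ICR, were kept free of specific pathogens and had free access to chow. The study compared liver transcript levels of the knockout with those of wild-type mice. The sources used here do not give which small Maf genes were deleted, the promoter that drove the deletion, or the sex of the mice. The RNA samples of a genotype are described as independent, without a statement that each came from a mouse of its own, so the p-values measure the spread between these samples.

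A lipid droplet is a core of triglyceride and sterol ester under a single layer of phospholipid that carries coat proteins. Perilipins cover this surface and control access of lipases, CIDE proteins pass lipid from smaller to larger droplets, and FITM proteins of the endoplasmic reticulum take part in droplet formation. PNPLA2 (ATGL) begins the release of fatty acids from stored triglyceride, and G0S2 binds and inhibits it. In normal liver Cideb and Plin2 are well expressed, whereas Cidea and Cidec are best known from adipose tissue and from fatty liver. The small Maf proteins are bZIP factors that bind DNA as partners of CNC and Bach factors, among them NRF2.

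Levels below are log2 processed intensities minus the 75th percentile of the array, so that 0 is the 75th percentile of that array. A difference is always sMaf CKO minus control, and levels are never compared between genes, since each is read by a different probe. That percentile was a processed signal of 483.4 to 960.5, and 58.0% to 73.6% of probes were well above background. Replicate 3 of each genotype was on slide 2 and the other 4 arrays on slide 1, so a slide 2 value compares 1 array with 1. Mafg, a small Maf gene, was read as a check of the labels. Its level was 1.88, 1.87 and 2.23 in controls 1, 2 and 3, against -2.97, -4.36 and -0.76 in sMaf CKO samples 1, 2 and 3. It was lower on every sMaf CKO array, with replicate 3 the least low. In limma's test over all genes the difference of -4.69 just missed the threshold (adjusted p = 0.0533), and it was past the threshold in a fit with slide as a blocking term (adjusted p = 0.0207). Of 10 hepatocyte markers 7 had a probe, and all 7 were well above background on all 6 arrays.

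Among the lipid droplet genes, Cidea rose 5.91-fold and Fitm1 fell 5.08-fold in sMaf CKO liver, where 2 of 3 arrays measured Fitm1 above background (4.93-fold with the other array at its detection limit). Cidec and G0s2 were 6.11-fold and 2.75-fold higher without passing the test, and no difference was detected for Cideb, Pnpla2 or the 4 perilipins. In all, 1 of the 10 members was called higher and 1 lower at a Benjamini-Hochberg adjusted p under 0.05 in limma's test, against 0.385% called higher and 0.157% called lower (0.541% in all) of the 21059 genes tested. At an unadjusted p under 0.05 there were 4 members, against 16.8% of all genes. For 5 of the 10 members, 3 higher and 2 lower, every sMaf CKO array lay on one side of every control array, against 22.9% of all genes. The median difference of the 10 members was 0.34, beside -0.05 for all genes tested (slide 1 alone 0.39, slide 2 alone 0.38). The members moved apart from one another, from -2.34 for Fitm1 to 2.61 for Cidec.

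**Figure D1:**
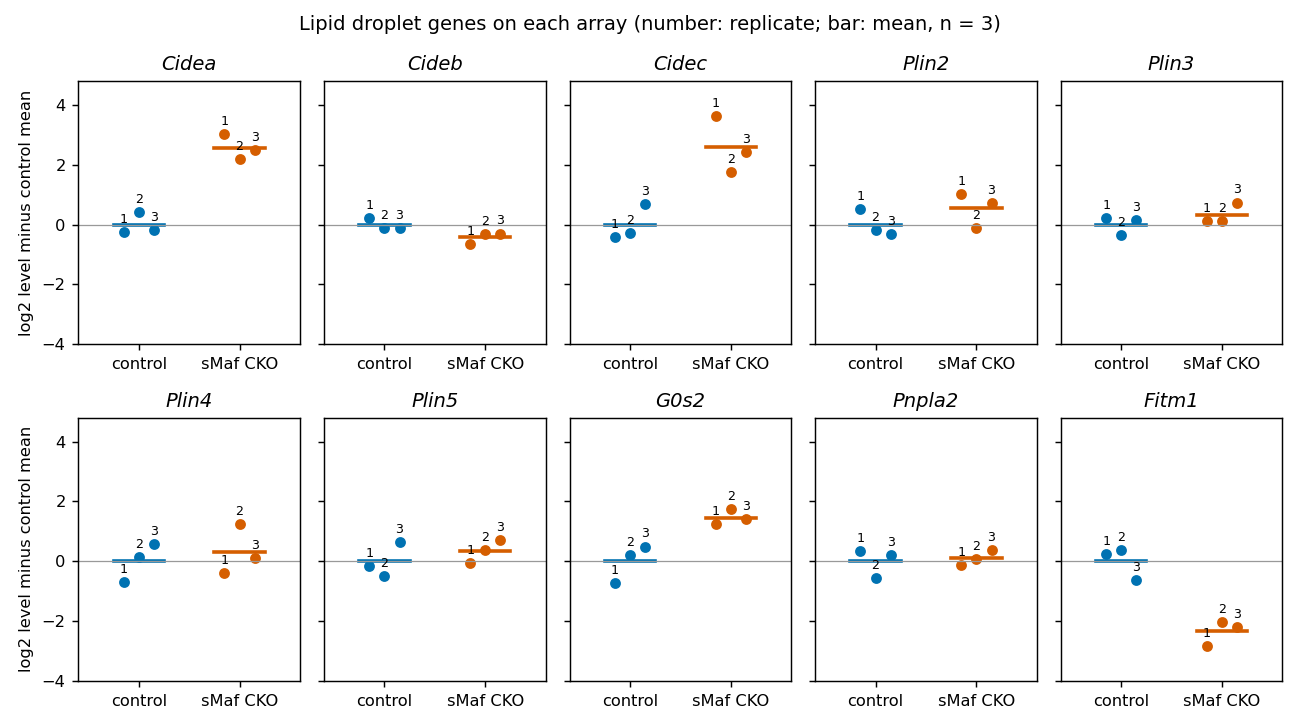
Level of each of the 10 lipid droplet genes on each array, as the log2 difference from the mean of the control arrays; points are arrays with their replicate number, bars are means (n = 3). The sMaf CKO arrays lie apart from the control arrays for Cidea, Cidec and G0s2 (higher) and for Fitm1 and, narrowly, Cideb (lower), and the perilipins and Pnpla2 overlap.

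Of the 3 CIDE genes, Cidea was called higher, Cidec was higher on every sMaf CKO array without passing the test, and Cideb was not higher. Cidea encodes a droplet protein best known from brown fat and the fatty liver. Its level was -4.39, -3.70 and -4.30 in controls 1, 2 and 3, against -1.11, -1.95 and -1.64 in sMaf CKO samples 1, 2 and 3. Every sMaf CKO array was above every control array, at 453% to 809% of the control mean. Cidea rose by a log2 fold change of 2.56 (SE 0.30, 95% interval 1.86 to 3.27, adjusted p = 0.0290 in limma's test), from -4.13 ± 0.37 (SD, n = 3) to -1.57 ± 0.42 (SD, n = 3). It ranked 122 of 21059 by the size of the rise and 27 by its p-value. The difference was 2.52 within slide 1 and 2.66 within slide 2, and the call held with slide as a block (adjusted p = 0.0207). Leaving out control array 1 or 3 ended the call (adjusted p = 0.143 and 0.0927), as did leaving out sMaf CKO array 1 or 2 (adjusted p = 0.116 and 0.0817). The difference stayed between 2.34 and 2.78 over the 6 arrays left out in turn. Cidea was dim in control liver, where its signal was 2.87, 5.67 and 1.47 times the lowest signal well above background on arrays 1, 2 and 3. It was 53.3, 18.6 and 9.91 times that limit on sMaf CKO arrays 1, 2 and 3. With normexp background correction, which started from each spot's median signal and used an offset of 50, the difference was 1.44 (adjusted p = 0.0521).

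Cidec encodes the protein of large droplets in white fat, also known as FSP27. Its level was -1.36, -1.22 and -0.27 in controls 1, 2 and 3, against 2.68, 0.82 and 1.47 in sMaf CKO samples 1, 2 and 3. The genotypes did not overlap, and sMaf CKO array 1 stood highest, at 1244% of the control mean against 341% and 536% on the other sMaf CKO arrays. The difference of 2.61 (SE 0.50, 95% interval 1.44 to 3.78) was about as large as that of Cidea but did not pass limma's test over all genes (adjusted p = 0.0750). The SD among sMaf CKO arrays was 0.95, larger than for 94.5% of all genes tested. The difference was 3.04 within slide 1 and 1.74 within slide 2. Cidec passed under 3 of the 20 alternatives with a test, which were median scaling (adjusted p = 0.0375), the filter on probes well above background on all 6 arrays (adjusted p = 0.0432) and trend and robust settings of eBayes (adjusted p = 0.0479). Under the other 17 it did not, among them the slide block (adjusted p = 0.0592) and the 6 fits that each left out 1 array (adjusted p = 0.0812 to 0.232).

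Cideb, the CIDE gene of normal hepatocytes, which acts in the loading of very-low-density lipoprotein with lipid, was not higher. Its level was 2.15, 1.84 and 1.85 in controls 1, 2 and 3, against 1.31, 1.64 and 1.65 in sMaf CKO samples 1, 2 and 3. The sMaf CKO arrays lay just below the control arrays, with little spread in either genotype (SD 0.18 and 0.19, n = 3 each). The difference of -0.41 (SE 0.22, 95% interval -0.92 to 0.09) did not pass limma's test (adjusted p = 0.386) (slide 1 alone -0.52, slide 2 alone -0.20). Scaling on bright spike-in probes raises the median of all genes by 0.33, and under it the Cideb difference was -0.087.

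Because a ratio of 2 genes within an array does not depend on how the arrays are scaled, 5 pairs of members were compared in this way. Each ratio was set to a mean of 0 over the control arrays. The ratios reuse the members' own levels, so they are not separate evidence for the differences. The log2 ratio of Cidea to Cideb was -0.47, 0.54 and -0.07 in controls 1, 2 and 3, against 3.65, 2.49 and 2.79 in sMaf CKO samples 1, 2 and 3. The ratio of Cidec to Cideb was -0.62, -0.16 and 0.78 in controls and 4.27, 2.08 and 2.72 in sMaf CKO samples, in the same order. Both ratios were higher on every sMaf CKO array, 7.87-fold and 8.14-fold on average. An exact two-sided permutation test gave p = 0.10 for each, the smallest it can give with 3 arrays a group (adjusted over the 5 pairs, p = 0.167). The ratio of Cidea to Cidec differed by -0.05, with overlapping arrays (exact permutation p = 0.90, adjusted p = 0.90).

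RefSeq promoters on GRCm38.p6 were matched for 9 of the 10 members, in 11 windows. Cidea was the member without a matched promoter, so it was not searched. The 250 bases before each start were searched on both strands for 5 motifs. These were the core bound by small Maf with CNC factors (TGACNNNGC), the AP-1 site (TGACTCA), the E-box (CACGTG), a sterol element (TCACNCCAC) and the perfect direct repeat 1 element bound by PPAR. The small Maf and CNC core was present before Cideb and Fitm1, and in 10.2% of 32817 promoters. The AP-1 site was present before the second listed start of Cidec and the first of Plin5, and in 4.46% of promoters. The other 3 motifs were in none of the 11 windows, and in 6.02% (E-box), 1.05% (sterol element) and 0.0335% (direct repeat) of promoters. No match overlapped another. The windows of Cideb (chr14:55758425-55758674, minus strand), of the second start of Cidec (chr6:113434765-113435014, minus strand) and of Fitm1 (chr14:55575424-55575673, plus strand) are shown because they hold a matched motif and belong to CIDE genes and to the member that fell, with the matched motif in capitals.
Cideb: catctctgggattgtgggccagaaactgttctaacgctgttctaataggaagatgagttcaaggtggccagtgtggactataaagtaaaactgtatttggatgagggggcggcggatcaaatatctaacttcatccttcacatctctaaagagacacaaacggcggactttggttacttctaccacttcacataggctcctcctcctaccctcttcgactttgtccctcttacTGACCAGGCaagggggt
Cidec: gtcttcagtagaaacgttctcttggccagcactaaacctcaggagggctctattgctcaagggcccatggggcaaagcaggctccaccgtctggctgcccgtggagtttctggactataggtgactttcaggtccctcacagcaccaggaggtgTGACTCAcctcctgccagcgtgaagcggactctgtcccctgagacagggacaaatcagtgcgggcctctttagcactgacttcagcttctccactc
Fitm1: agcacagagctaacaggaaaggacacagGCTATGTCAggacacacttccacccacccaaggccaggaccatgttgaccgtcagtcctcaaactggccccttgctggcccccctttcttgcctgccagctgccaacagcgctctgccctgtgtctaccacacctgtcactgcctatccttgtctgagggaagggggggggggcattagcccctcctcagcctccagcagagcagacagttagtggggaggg
Counted from the start, the match lay at -17 to -9 for Cideb, at -96 to -90 for Cidec and, on the opposite strand, at -222 to -214 for Fitm1. These are letters in a sequence, and binding was not measured.

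Fitm1, which encodes a membrane protein of the endoplasmic reticulum that binds triglyceride and is best known from muscle, was the member that fell. Its level was -2.65, -2.52 and -3.52 in controls 1, 2 and 3, against -5.72, -4.92 and -5.08 in sMaf CKO samples 1, 2 and 3. All sMaf CKO arrays lay below all control arrays. Arrays 1 and 2 kept 14.1% and 24.6% of the control mean, and array 3, where the spot was not well above background, kept at most 24.1%. The level fell by 2.34 on the log2 scale (SE 0.35, 95% interval -3.15 to -1.54, adjusted p = 0.0459 in limma's test), from -2.89 ± 0.54 (SD, n = 3) to -5.24 ± 0.43 (SD, n = 3). The difference was -2.74 within slide 1 and -1.56 within slide 2, and the call held with slide as a block (adjusted p = 0.0274). Fitm1 was near the detection limit in sMaf CKO liver. Its signal was 2.19, 2.38 and 0.916 times the lowest signal well above background on sMaf CKO arrays 1, 2 and 3, so 2 of 3 arrays measured it. With the dim array raised to that limit, a setting chosen after seeing the data, the fall was 4.93-fold (adjusted p = 0.0478). The call was lost without any 1 of the control arrays 1, 2 and 3 (adjusted p = 0.174, 0.0645 and 0.0559) or sMaf CKO arrays 1 and 2 (adjusted p = 0.149 and 0.0996). With normexp background correction the difference shrank to -0.84 (adjusted p = 0.453). Fitm2, the second gene of this family, differed by -0.04 (SE 0.21, 95% interval -0.51 to 0.44, adjusted p = 0.946 in limma's test), and was chosen for mention after its value was seen.

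**Figure D2:**
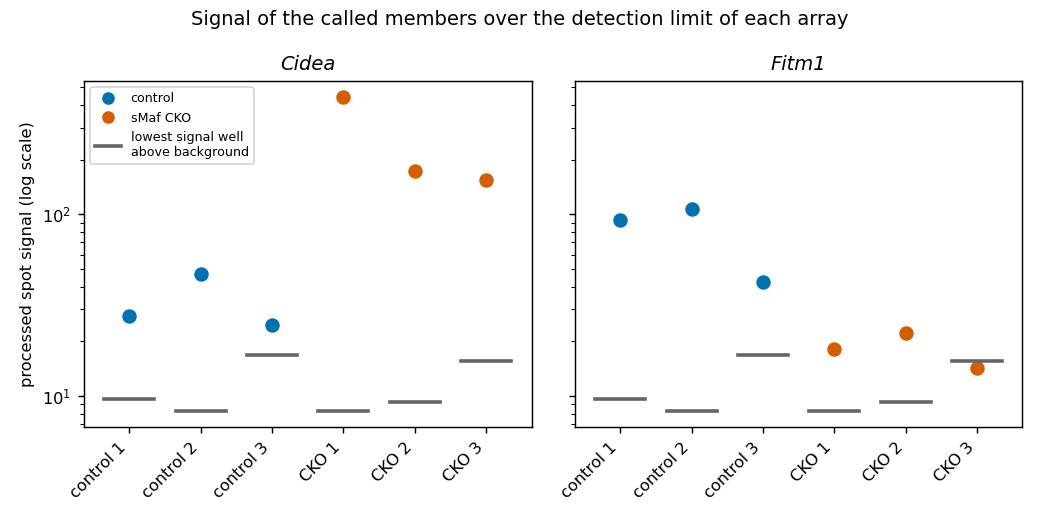
Processed spot signal (log axis) of Cidea and Fitm1 on each array, with a bar at that array's detection limit (its dimmest probe still well above background). Cidea lies close to the limit on control arrays (1.47 to 5.67 times) and far above it on sMaf CKO arrays, whereas Fitm1 on sMaf CKO arrays is between 0.916 and 2.38 times the limit.

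Of the lipolysis genes, neither the inhibitor G0s2 nor the lipase Pnpla2 passed the test. The level of G0s2 was 1.31, 2.25 and 2.52 in controls 1, 2 and 3, against 3.26, 3.78 and 3.42 in sMaf CKO samples 1, 2 and 3. Every sMaf CKO array was above every control array, with a wide spread in control liver (SD 0.63, n = 3) and a narrow one in sMaf CKO liver (SD 0.26, n = 3). The difference of 1.46 (SE 0.34, 95% interval 0.66 to 2.26) did not pass limma's test over all genes (adjusted p = 0.114) (slide 1 alone 1.74, slide 2 alone 0.90). The level of Pnpla2 was 4.15, 3.24 and 4.03 in controls 1, 2 and 3, against 3.68, 3.87 and 4.19 in sMaf CKO samples 1, 2 and 3. The arrays of the genotypes overlapped. The difference was 0.11 (SE 0.30, 95% interval -0.59 to 0.81, adjusted p = 0.883 in limma's test). A second Pnpla2 probe gave -0.09, so the sign of this small difference depends on the probe. The log2 ratio of G0s2 to Pnpla2, which is free of array scaling, was -1.06, 0.79 and 0.27 in controls 1, 2 and 3, against 1.36, 1.68 and 1.01 in sMaf CKO samples 1, 2 and 3. The ratio was higher on every sMaf CKO array, 2.55-fold on average, with an exact permutation p of 0.10, the smallest possible (adjusted p = 0.167 over the 5 pairs). It was 1.66 within slide 1 and 0.74 within slide 2.

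Of the 4 perilipins, 0 were called by limma, whether with adjusted p-values or at an unadjusted p under 0.05. Plin2, the main droplet coat protein of hepatocytes, had levels of 7.18, 6.46 and 6.33 in controls 1, 2 and 3, against 7.67, 6.55 and 7.39 in sMaf CKO samples 1, 2 and 3. The sMaf CKO arrays 1 and 3 were above all control arrays, while array 2 was within their range. The difference was 0.55 (SE 0.36, 95% interval -0.30 to 1.39, adjusted p = 0.486), with 0.29 within slide 1 and 1.06 within slide 2. No Plin2 spot was saturated. Plin3, a perilipin that moves from the cytosol onto new droplets, had levels of 4.13, 3.56 and 4.05 in control and 4.05, 4.03 and 4.65 in sMaf CKO liver, in the order of the replicates. Only sMaf CKO array 3 was above the control range, and the difference was 0.33 (95% interval -0.30 to 0.96, adjusted p = 0.574). The log2 ratio of Plin2 to Plin3 differed by 0.22 (exact permutation p = 0.70, adjusted p = 0.875).

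Plin4 and Plin5 are neighbours on chromosome 17, with 0 genes between them in the gene table, and neither difference was detectable. Plin5, which ties droplets to mitochondria in tissues that burn fat, had levels of 3.83, 3.49 and 4.65 in controls 1, 2 and 3, against 3.94, 4.36 and 4.69 in sMaf CKO samples 1, 2 and 3. In both genotypes replicate 3, the array on slide 2, was the highest. The difference was 0.34 (SE 0.35, 95% interval -0.47 to 1.15, adjusted p = 0.657) (slide 1 alone 0.49, slide 2 alone 0.04). Plin4, a perilipin best known from fat and muscle, had levels of -0.32, 0.52 and 0.95 in controls and 0.0021, 1.63 and 0.49 in sMaf CKO samples, in the same order. Its arrays overlapped, and its SD was 0.65 among controls (above 89.1% of all genes tested) and 0.83 among sMaf CKO samples (above 91.9%). The difference of 0.32 (SE 0.48, 95% interval -0.79 to 1.44, adjusted p = 0.770) had no stable sign, with 0.71 within slide 1 and -0.46 within slide 2. The intervals of the 4 perilipins reach up to 0.96 to 1.44, so rises of up to about that size cannot be told from none with these arrays.

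**Figure D3:**
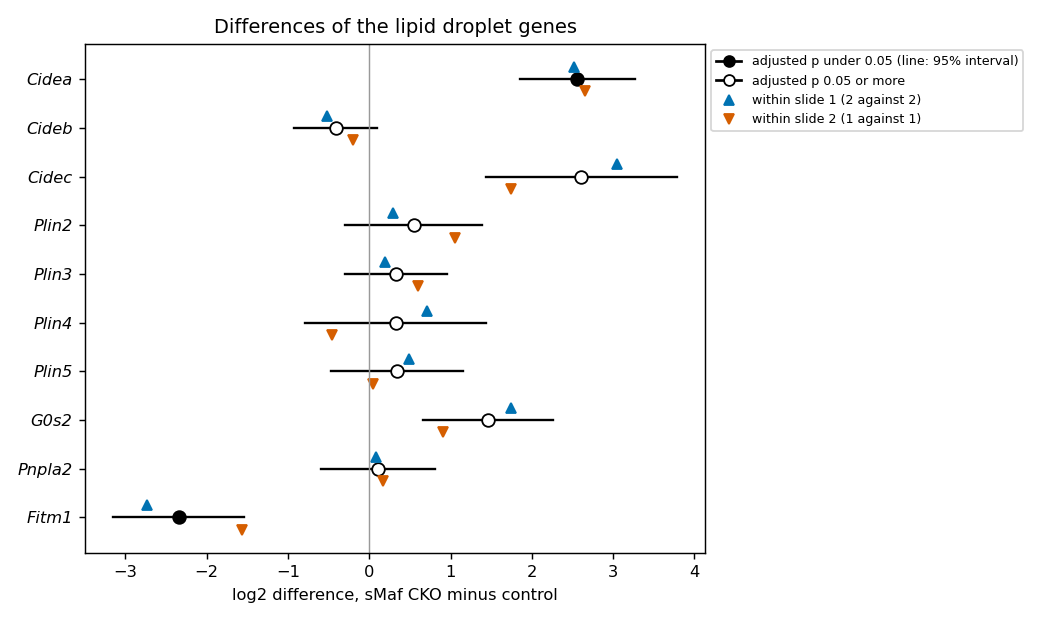
Log2 difference (sMaf CKO minus control) of each lipid droplet gene with its 95% interval from limma; filled circles have an adjusted p under 0.05, and triangles give the difference within each slide. Cidea (2.56) and Fitm1 (-2.34) are the filled ones, and Plin4 is the member whose within-slide values lie on both sides of 0.

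**Figure D4:**
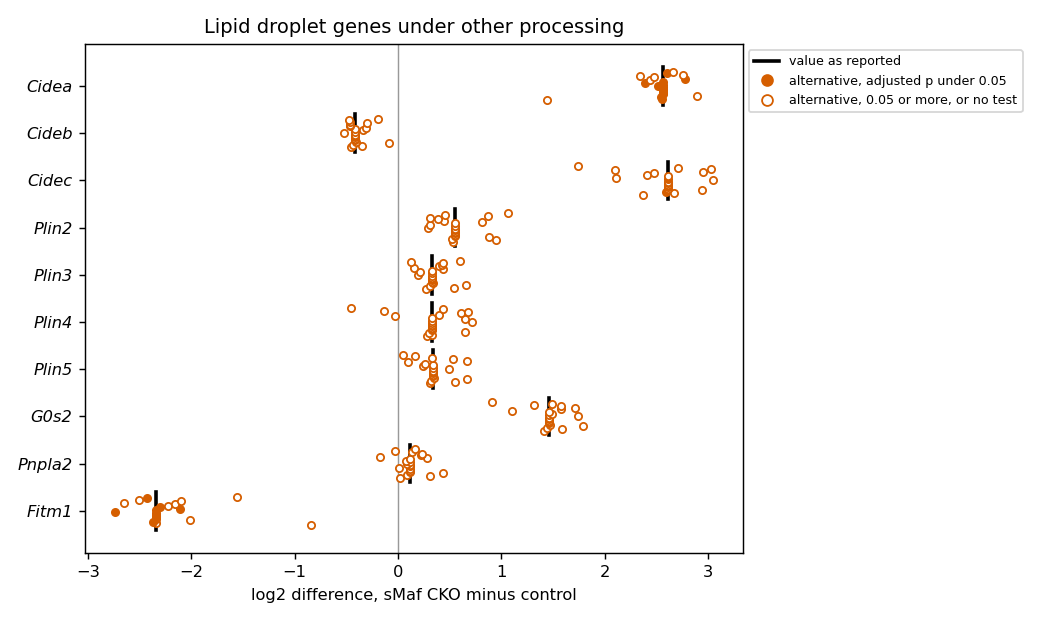
Log2 difference of each lipid droplet gene as reported (black bar) and under each alternative processing or array subset (circles; filled where the adjusted p was under 0.05). Values of Plin4 and Pnpla2 cross 0, and those of the other members stay on one side of it throughout, though Plin5 and Cideb come near it (0.04 and -0.09).

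The other genes of the pathway were read from lists of related genes. Of 18 tested genes of droplet formation outside the members, 0 were called by limma and 2 had an unadjusted p under 0.05; 16 differences were negative (88.9%, beside 54.7% of all genes), with a median of -0.33 beside -0.05 for all genes. All 7 hepatocyte markers were negative as well, with a median of -0.45, and their part in this was not tested. The best-ranked were Soat1, which esterifies cholesterol (0.97, SE 0.22, adjusted p = 0.106), and Lpin1, a phosphatidate phosphatase of triglyceride synthesis (-1.26, SE 0.44, adjusted p = 0.224). Plin1, the perilipin of fat cells, stayed under the background limit throughout the 6 arrays. Of 10 other lipolysis genes 0 were called, and 4 had an unadjusted p under 0.05, against 16.8% of all genes. In this list 8 of 10 differences were negative, with a median of -0.46. Hilpda, which like G0s2 inhibits PNPLA2, was at 0.85 to 2.09 in sMaf CKO and -0.51 to -0.11 in control liver, a difference of 1.63 (SE 0.37) that did not pass (adjusted p = 0.103). Ces1d, a triglyceride hydrolase of the liver, differed by -0.73 (SE 0.25, adjusted p = 0.222). Abhd5, the activator of PNPLA2, named after its value was seen, differed by -0.02 (95% interval -0.74 to 0.70, adjusted p = 0.984). G0s2 and Hilpda were each higher on every sMaf CKO array, as were 11.3% of all genes tested, and neither passed the test.

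Of 12 transcription factors of lipid metabolism 0 were called by limma, and 5 had an unadjusted p under 0.05, against 16.8% of all genes. All 5 were lower. The median of the 12 was -0.41, beside -0.45 for the 7 hepatocyte markers, whose part in this was not tested. Ppara, the fatty acid receptor that drives many droplet and oxidation genes in the liver, differed by -1.03 (SE 0.25, adjusted p = 0.116), with the same value within both slides. Ppargc1a, a coactivator of oxidation genes, differed by -1.30 (SE 0.42, adjusted p = 0.195). Pparg, the fat cell factor linked to Cidea and Cidec, named after its value was seen, differed by 0.32 (SE 0.23, 95% interval -0.22 to 0.87, adjusted p = 0.520). Of 14 targets of PPARα, 1 was called (0.541% of all genes were) and 6 had an unadjusted p under 0.05 (16.8% of all genes had). The median was 0.11. The called one was the hormone gene Fgf21, which rose (log2 fold change 3.42, SE 0.43, adjusted p = 0.0367). These counts describe the lists and do not set the 10 members apart from them.

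**Figure D5:**
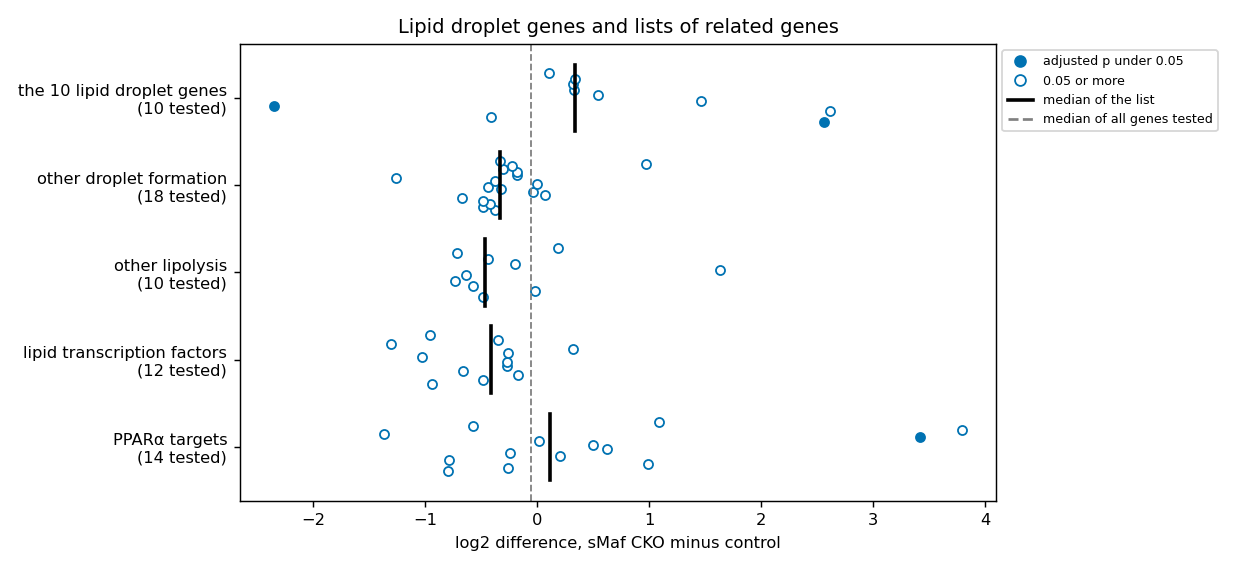
Log2 differences of the 10 lipid droplet genes and of 4 lists of related genes; filled points have an adjusted p under 0.05, black bars are list medians and the dashed line is the median of all genes tested (-0.05). The members' median is 0.34, and the medians of other droplet formation, other lipolysis and lipid transcription factor genes are -0.33, -0.46 and -0.41, while that of the PPARα targets is 0.11.

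In whole liver, more cells of a type and more RNA per cell cannot be told apart, and several of the 10 genes are also expressed by cells other than hepatocytes. Of 8 adipocyte markers, 7 were not tested because they were dim, and 2 were well above background on any sMaf CKO array, against 4 on any control array. Adipoq, the defining marker of fat cells, was well above background on 2 of 3 control and 0 of 3 sMaf CKO arrays, and Lep and Plin1 on none. Fabp4, which macrophages and endothelial cells also express, was the adipocyte marker tested, and its summed level was 84.1% to 110% of the control mean in control and 120% to 144% in sMaf CKO liver. The summed level of 9 tested macrophage markers was 71.2% to 118% of the control mean in control and 167% to 377% in sMaf CKO liver, and 2 of the 9 were called, both higher. These were Trem2, a lipid receptor of macrophages, which was measured on 2 of 3 control arrays and rose 18.1-fold (adjusted p = 0.0105 in limma's test), and Gpnmb, which was not well above background on the control arrays and was at least 22.2-fold higher (adjusted p = 0.0117). Cd5l alone gave 34.2% to 61.1% of the macrophage sum, with a difference of 0.88. Marco, named after its value was seen, differed by 3.73 (SE 0.77, adjusted p = 0.0859 in limma's test). The part of each gene in the higher sum was not tested. Adgre1 and Csf1r, named after their values were seen, differed by 0.45 and 0.18, with overlapping arrays. For 7 of the 9 every sMaf CKO array lay above every control array, against 11.3% of all genes, and the median was 0.88. Of 8 stellate cell markers 0 were called by limma (4 at an unadjusted p under 0.05), and the best-ranked were Reln (0.84) and Hgf (1.07). The summed level of the 8 was 84.8% to 108% in control and 128% to 152% in sMaf CKO liver. For 6 cholangiocyte markers it was 87.2% to 109% in control and 101% to 458% in sMaf CKO liver (0 called, 1 at an unadjusted p under 0.05). That sum was 83.9% to 96.0% Spp1, which macrophages also express (1.03, adjusted p = 0.380). Epcam ranked first (0.89, adjusted p = 0.235), Krt7, Krt19 and Cftr, named after their values were seen, differed by 0.17, 0.30 and 0.07, and the median of the 6 was 0.46. For 7 hepatocyte markers it was 81.9% to 112% in control and 54.7% to 93.3% in sMaf CKO liver (0 called, 1 at an unadjusted p under 0.05), and the best-ranked were Apoa1 (-0.57) and Tat (-0.61). For 6 endothelial markers it was 83.4% to 119% and 74.6% to 99.0% (0 called and 0 at an unadjusted p under 0.05), and the best-ranked were Kdr (-0.56) and Stab2 (-0.46). Of the sMaf CKO arrays, array 1 had the highest macrophage sum and the highest Marco (7.69 against 6.45 and 5.31), Cd5l and Spp1, but not the highest Trem2 (-0.70 against 0.31 and -0.03) or Gpnmb (-0.93 against -0.43 and -2.20). Macrophages were not alone in this. Among the sMaf CKO arrays, array 1 also had the highest stellate (152%) and cholangiocyte (458%) sums. It had the lowest hepatocyte (54.7%) and endothelial (74.6%) sums, and Fabp4 was at 144% on arrays 1 and 3. Array 1 was also the one with the highest Cidea, Cidec and Plin2 and the lowest Fitm1 and Cideb. The other members did not follow: G0s2, Plin4, Plin5 and the tested Pnpla2 probe were lowest on array 1, and Plin3 was highest on array 3. The second Pnpla2 probe was highest on array 1 (1.40 against 1.27 and 1.18), so for Pnpla2 this depends on the probe. The part of these cell types in the differences of the lipid droplet genes was not tested.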

How the data were processed

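Liver RNA of 3 control and 3 sMaf CKO samples was hybridised to one-colour arrays, 1 each. Per the file headers, the authors extracted spot intensities with Agilent Feature Extraction 10.7.3.1 (protocol GE1_107_Sep09), background-subtracted and detrended within each array. The deposited value table holds log2 values that equal these intensities on the scale used here, centred for each probe on its median (r = 1.00 on every array); column medians were 0.05, -0.02, 0.08, -0.10, -0.11 and 0.09.

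Log2 processed intensities were averaged per probe, without control or outlier spots, minus the array's 75th percentile. Of the probes, 27859 were well above background on 3 or more arrays and were kept, named by accession through a RefSeq gene table (26690 probes with 1 symbol), and the brightest probe stood for a gene. Groups were compared over all genes with limma 3.58.1 in R 4.3.3, genotype alone in the model, with Benjamini-Hochberg adjustment and a threshold of 0.05; the test was tried on simulated data. The files name mouse build mm9, and no probe or gene position was taken from them; promoter windows carry the GRCm38.p6 coordinates of the RefSeq table. Probe sequences and proteins were not used here. All 10 members are named, and of each other list up to 4 called genes or else the 2 with the smallest p. Some further genes are named outside this rule, among them Fitm2, Abhd5, Pparg, Adgre1, Csf1r, Marco, Cd5l, Spp1, Adipoq, Lep and Plin1. Members and lists were chosen with earlier results of these data known.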

Additional observations from a re-analysis of the deposited data

How the results depend on the processing

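Of the 10 members, 2 were called, and 114 of all genes. Normexp background correction, spike-in scaling and no filter on dim probes left 0 members called by limma (3, 4 and 4 had an unadjusted p below 0.05) and 74, 13 and 1 genes. Quantile normalization left 1 member, Cidea, and 22 genes, of which 81.8% were higher against 71.1% as reported. Median scaling called 252 genes, the filter on all 6 arrays 267, trend and robust settings 308, array weights 513, slide as a block 340 and the slide 1 arrays alone 196. Leaving out 1 array at a time gave 0 to 2 members and 3 to 294 genes. Members called as reported were Cidea and Fitm1, which passed under 13 of 20 and 10 of 19 alternatives with a test, 1 of them, the raising of member spots under the detection limit to that limit, chosen after seeing the data. Not all of these are separate checks. The deposited value table holds the same intensities, the mean of a gene's probes changes nothing for genes with 1 probe, and the raising left Cidea at 2.56. With 1 array left out, Plin4 ranged from -0.14 to 0.68 and Pnpla2 from -0.17 to 0.28. Plin4 turned negative without control replicate 1 (-0.028), without sMaf CKO replicate 2 (-0.14) and within slide 2 (-0.46), and Pnpla2 without control replicate 2 (-0.17) or sMaf CKO replicate 3 (-0.028). No other member changed sign under any alternative run. The replicate numbers are not shown to pair the arrays: deviations of same-numbered arrays correlated at 0.06, 0.17 and 0.42, and not every array correlated best with its own number. With a replicate block 291 genes and the same 2 members were called. The causes of these changes were not tested. Cidea in control and Fitm1 in sMaf CKO liver lie near background, which limits the precision of both folds.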
